A study of Mus musculus with 8 samples.

Results

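The genes described here are those named *Sprr*, *Lce* or *S100a*, together with *Ivl*, *Lor* and *Flg*, which with 1 exception lie in or beside the epidermal differentiation complex on chromosome 3, in RNA-seq libraries of mouse pancreatic ductal adenocarcinoma (PDAC) cells. The rule for membership uses the gene name and no measured value, and 56 of the 53465 genes in the count table met it. They comprised 15 *S100a* genes, 17 *Sprr* genes, 21 *Lce* genes and the 3 envelope genes *Ivl*, *Lor* and *Flg*. Of these, 16 were detected, meaning 10 or more counts in at least 2 libraries, and all 16 passed the filter on low counts and were tested. Of all 53465 genes 14301 passed that filter.

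Both lines used, B73 and B87, were derived from primary tumors in the pancreas of KC-shSmad4 mice. In this model *Ptf1a*-Cre, active in the pancreatic lineage, switches on an rtTA3 transactivator with the mKate2 reporter, and doxycycline (Dox) then induces a short hairpin RNA (shRNA) against *Smad4* linked to GFP. Every group carried these alleles. Cells on Dox were Smad4 off, and cells kept without Dox for 5 days before plating were Smad4 on. Treatment began 24 h after plating. Each state was treated for 24 h with 100 pM recombinant mouse TGFβ1 or with 2.5 µM SB505124, a kinase inhibitor of the TGFβ type I receptor, giving 4 groups of 2 libraries (1 per line). The presence of Dox and the depletion of *Smad4* changed together and cannot be told apart. No untreated cells were included, so any rise or fall with TGFβ1 is against SB505124, and the part of each treatment cannot be told apart. Each line stands for 1 tumor. P-values therefore rest on 2 cultures. With the line in the model they measure the spread left once the constant difference between the cultures is removed. Without it they include that difference.

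The epidermal differentiation complex is a cluster of genes whose products build the cornified envelope, the protein shell that replaces the membrane of a dying keratinocyte. Loricrin (*Lor*), involucrin (*Ivl*), the small proline-rich proteins (*Sprr*) and the late cornified envelope proteins (*Lce*) are cross-linked into that shell by transglutaminases, and filaggrin (*Flg*) bundles keratin filaments beneath it. The *S100a* genes flanking them encode small calcium-binding proteins that are used far beyond skin. TGFβ receptors act through SMAD2 and SMAD3, which enter the nucleus with SMAD4.

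*Smad4* mRNA followed the labels. It ranged from 33.7 to 35.5 CPM in the 4 Smad4-off libraries and from 97.4 to 117 CPM in the 4 Smad4-on libraries. CPM denotes a gene's counts per 1000000 counts of its library, with library sizes adjusted by TMM. Libraries held 18389235 to 23440550 counts, so that 3 counts, the smallest level taken as measurable, corresponded to 0.125 to 0.162 CPM. Such floors cover counting error only. Detected members together took 3518 to 5929 CPM of a library, and the B73 library of Smad4-on cells under SB505124 was the highest. Of the 6 epithelial markers checked, *Krt8*, *Krt18*, *Krt19*, *Krt7* and *Cdh1* were expressed in both lines, while *Epcam* reached at most 39 counts. Of the 14 squamous markers, *Krt1*, *Krt6a*, *Krt6b* and *Dsg3* had 0 counts in every library and *Krt5* reached at most 5. *Pkp1* was the most abundant (82 to 1646 counts), and *Krt13* (3 to 296), *Krt14* (0 to 102) and *Krt10* (57 to 92) were also present. The squamous markers summed to at most 38.0 CPM in the Smad4-off libraries and to 36.1 to 93.4 CPM in the Smad4-on libraries. The sum was higher with Smad4 on in every pair, but *Pkp1* weighed most in it. *Pkp1* averaged 34.2 CPM over all libraries, and the next squamous marker, *Krt13*, averaged 3.63 CPM. Of the 5 squamous markers tested only 1, *Pkp1*, was called higher with Smad4 on, in both treatments. Of all tested genes 1.31% were called higher under TGFβ1 and 0.636% under SB505124. The part of the squamous markers in the levels of the members was not tested.

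Promoters are shown for the *Sprr* and *Lce* members that changed with *Smad4* under TGFβ1, because these genes moved in opposite directions. Each run is the 250 bases before the RefSeq start on GRCm38.p6, written 5′ to 3′ on the strand of the gene. Capitals mark matches to the AP-1 motif TGANTCA in *Sprr1a* and *Sprr2h* and to the ETS motif GGAAGT, here on the other strand, in *Lce1g*. The last bases of the *Sprr1a* run fall inside the gene model of the count table.
Sprr1a, chr3:92485882-92486131, minus strand: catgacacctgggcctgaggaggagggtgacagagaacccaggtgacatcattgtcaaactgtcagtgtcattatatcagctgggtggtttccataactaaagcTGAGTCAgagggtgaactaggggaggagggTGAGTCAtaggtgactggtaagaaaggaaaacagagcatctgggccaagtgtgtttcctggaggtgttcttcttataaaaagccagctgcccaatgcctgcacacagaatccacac
Sprr2h, chr3:92385435-92385684, plus strand: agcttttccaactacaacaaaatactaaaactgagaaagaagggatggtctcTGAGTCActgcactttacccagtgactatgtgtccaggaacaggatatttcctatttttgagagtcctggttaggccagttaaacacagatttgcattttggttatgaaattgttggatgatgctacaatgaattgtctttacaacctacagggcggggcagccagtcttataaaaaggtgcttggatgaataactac
Lce1g, chr3:92752339-92752588, minus strand: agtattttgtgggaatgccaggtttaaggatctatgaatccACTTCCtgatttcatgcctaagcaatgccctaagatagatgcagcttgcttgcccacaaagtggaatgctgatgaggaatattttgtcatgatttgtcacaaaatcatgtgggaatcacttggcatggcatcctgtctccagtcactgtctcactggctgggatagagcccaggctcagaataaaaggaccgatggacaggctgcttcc

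*Sprr1a* held 2 AP-1 matches, starting at positions -146 and -116 from the RefSeq start, and *Sprr2h* held 1, at -198. The same motif occurs on either strand in 6.749% of all 32851 RefSeq promoters of this length and at least 2 times in 0.338%. Among the 34 *Sprr* and *Lce* members with a promoter in the table it occurs in 9. None of the 3 printed promoters held the palindromic SMAD element GTCTAGAC (0.167% of all promoters), the single-site SMAD element CAGAC (42.194%), which shares the letters AGAC with the palindrome, or the KLF motif CCNCACCC (14.864%). The ETS match of *Lce1g* starts at -209, and 19.741% of all promoters hold that motif. A match describes letters only, and 48 of the 56 members had a promoter in the table.

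Most of the complex had few or no counts. Of the 56 members, 22 had 0 counts in all 8 libraries and 18 had some counts without reaching detection. Detection followed the family, with 10 of 15 *S100a* genes, 3 of 17 *Sprr* genes, 1 of 21 *Lce* genes and 2 of the 3 other envelope genes. *Flg* was listed at 0 counts in every library, as were 13 *Lce* and 7 *Sprr* genes. Such counts are less certain where genes share stretches of 75 bases, the read length. *Sprr2a2*, at 0 counts, shares 94.658% of its stretches with other genes, and *Lce3f*, also at 0, shares 45.624%. *S100a9*, a subunit of calprotectin, also had 0 counts, and its partner *S100a8* had 3 to 22 counts and reached 10 in only 1 library. Both are abundant in neutrophils, and of the 8 myeloid markers checked *Adgre1* had 0 counts throughout, *Ptprc* at most 3 and *Cd68* 23 to 126.

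**Figure D1:**
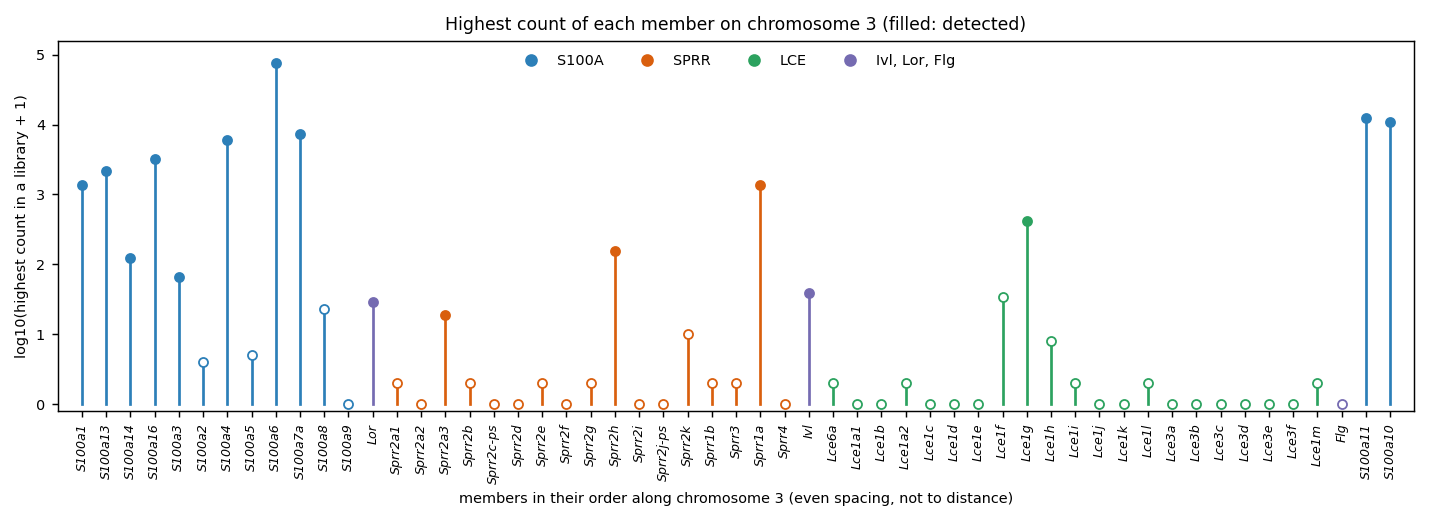
Highest count that each of the 55 members on chromosome 3 reached in any library, as log10(count + 1), with members in chromosomal order and colored by family, and filled points for detected members. The detected genes are mostly the *S100a* genes at either end, with isolated *Sprr* and *Lce* genes between them.

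The members on chromosome 3 span 3053.61 kb, from *S100a1* to *S100a10*, and *S100a11-ps* on chromosome 12 had 1 count in all. *S100a1*, *S100a13*, *S100a14* and *S100a16* form a block of 32.118 kb, *S100a3* to *S100a8* a block of 109.458 kb, and *S100a11* with *S100a10* a pair at the far end. Around the detection limit, *Sprr2a3* (18 counts in each of its 2 highest libraries), *Sprr2h* (153 and 16) and *Ivl* (38 and 12) lay just inside. *Lce1f* (33 and then 9 counts), *S100a8* (22 and 9) and *Sprr2k* (9 and 7, both in B73) lay just outside.

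Per kilobase of merged exons, *S100a6*, calcyclin, was the most abundant member at 2056 CPM per kb, averaged over the 8 libraries. Its lowest library (1548) lay above the highest of *S100a11* (1163), the next in order at 958 CPM per kb. *S100a10*, the partner of annexin A2, followed at 351 CPM per kb and *S100a4*, also called metastasin, at 313, and these overlapped across libraries. *S100a7a*, the mouse relative of psoriasin, had 111 CPM per kb, *S100a13* 79.2, *S100a1* 57.8, *Sprr1a* 45.8 and *S100a16* 38.4, each overlapping its neighbor in the order. The other 7 detected members averaged under 4.5 CPM per kb, with *Lce1g* highest at 4.42 and *Sprr2a3* lowest at 0.110. *Sprr1a* was the only envelope gene among the 9 most abundant members.

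**Figure D2:**
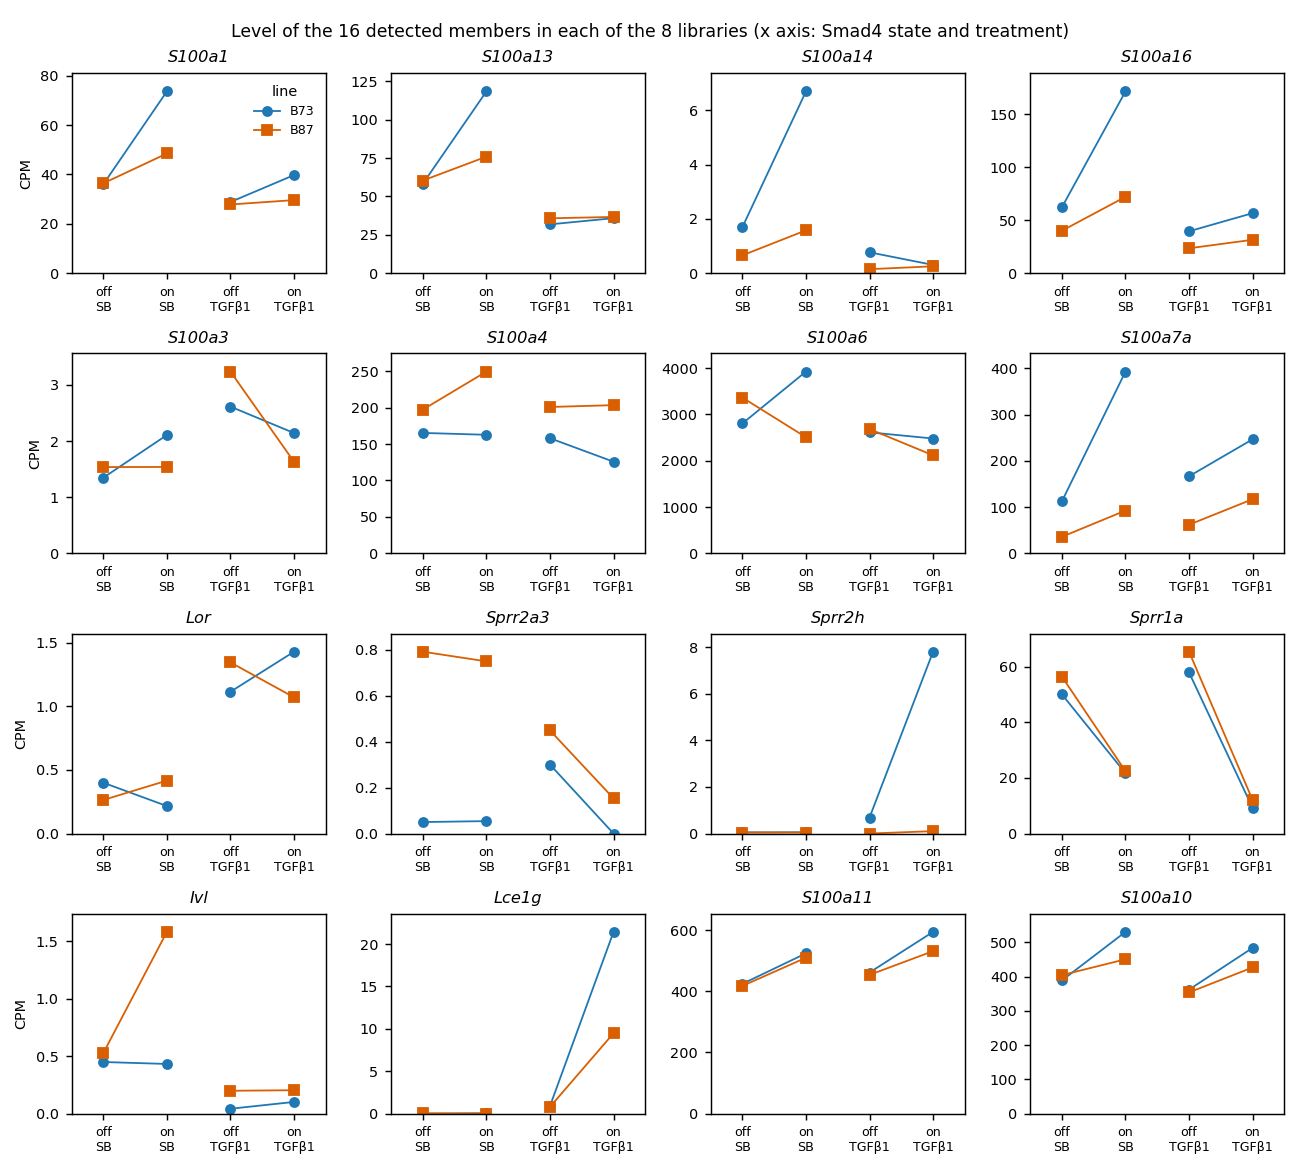
CPM of the 16 detected members in each library (y axis from 0), by *Smad4* state and treatment, with circles for line B73 and squares for line B87 and lines joining Smad4 off to Smad4 on within a line. *Sprr1a* falls to 9.19 and 12.0 CPM in Smad4-on cells under TGFβ1, whereas *Lce1g* rises there to 21.4 and 9.48 CPM.

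*Sprr1a* (ENSMUSG00000050359; chromosome 3, 92483952 to 92485895, minus strand) fell when *Smad4* was restored, in both lines and under both treatments. It encodes a cross-bridging protein of the envelope that is also induced in stressed and regenerating tissues. Under SB505124 it was 50.1 CPM in B73 and 56.4 in B87 with Smad4 off, and 21.7 and 22.4 CPM with Smad4 on. Under TGFβ1 it was 57.9 CPM in B73 and 65.4 in B87 with Smad4 off, against 9.19 and 12.0 CPM with Smad4 on. Smad4-on and Smad4-off libraries did not overlap in either treatment. With 2 libraries a group this is common, and it held for 9 of the 16 members under TGFβ1 (5 higher and 4 lower), against 44.8% of all tested genes (22.3% higher and 22.5% lower). Under SB505124 it held for 7 members (6 higher and 1 lower), against 31.4% of all tested genes (16.1% higher and 15.3% lower).

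The fall was 5.83-fold under TGFβ1 (log2 fold change -2.54 ± 0.116, SE; edgeR adjusted p 0.000779) and 2.41-fold under SB505124 (-1.27 ± 0.109, edgeR adjusted p 0.00424). Adjusted p-values come from the quasi-likelihood test over 14301 genes with the line in the model. With no replicate block, that is, without the line, the fall under TGFβ1 remained called (edgeR adjusted p 0.0132) and the fall under SB505124 was not (0.119), although DESeq2 with no replicate block called it (adjusted p 1.2e-08). The lines differed little, with log2 fold changes of -2.64 in B73 and -2.43 in B87 under TGFβ1, and of -1.20 and -1.33 under SB505124.

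The effect of TGFβ1 on *Sprr1a* passed the test in Smad4-on cells and not in Smad4-off cells. In Smad4-off cells the log2 difference between TGFβ1 and SB505124 was 0.21 ± 0.105 (95% interval -0.04 to 0.46; edgeR adjusted p 0.240). In Smad4-on cells TGFβ1 lowered it 2.09-fold (-1.06 ± 0.115, edgeR adjusted p 0.000844), a change near the 2-fold limit. Without the B73 library of Smad4-on cells under SB505124 it was -0.96, and without the B73 library of Smad4-on cells under TGFβ1 it was -0.94, both short of 2-fold.

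The *Smad4* effect on *Sprr1a* differed between treatments by a log2 value of -1.27 ± 0.156, and by -1.44 in B73 and -1.10 in B87. With an edgeR adjusted p of 0.0471, this was the only member of 16 called in the interaction, where 0.189% of all tested genes were called (0.0559% higher and 0.133% lower). The call was lost with no replicate block (edgeR adjusted p 0.646) and when any 1 of the 8 libraries was left out of the edgeR fit, although the difference then stayed between -1.40 and -1.15. These adjusted p-values ran from 0.0679 (without the B87 library of Smad4-on cells under TGFβ1) to 0.244 (without the B73 library of Smad4-off cells under TGFβ1). DESeq2 called the interaction of *Sprr1a* with the line (adjusted p 2.21e-06) and with no replicate block (0.00153).

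*Lce1g* (ENSMUSG00000027919; chromosome 3, 92750148 to 92752338, minus strand), a late envelope protein gene, went the other way. Under SB505124 it had 0 and 1 counts with Smad4 off and 1 and 0 counts with Smad4 on, in B73 and B87. Under TGFβ1 it had 21 and 16 counts with Smad4 off, and 420 and 186 counts with Smad4 on. All 4 TGFβ1 libraries lay above all 4 SB505124 libraries, and both Smad4-on libraries under TGFβ1 lay above the rest.

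Under TGFβ1, restoring *Smad4* raised *Lce1g* 17.3-fold (log2 fold change 4.11 ± 0.385, edgeR adjusted p 0.00289; 0.108 with no replicate block). DESeq2 with no replicate block also called it. Against the floor of 3 counts per library, the mean level with TGFβ1 was at least 108-fold higher than with SB505124 in Smad4-on cells and at least 6.03-fold higher in Smad4-off cells. The edgeR adjusted p-values of these were 0.000176 and 0.0136. With no replicate block they were 0.00648 and 0.0834, and DESeq2 with no replicate block called both. The Smad4-off call was also lost without the B73 library under SB505124 (0.0733) or the B87 library under TGFβ1 (0.0625). Fitted log2 values rest on the near-empty SB505124 libraries, and without 1 of these they moved between 8.31 and 10.86 in Smad4-on cells and between 3.62 and 7.56 in Smad4-off cells. The interaction of *Lce1g* was not called (4.09 ± 2.35, edgeR adjusted p 0.613).

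The neighbors of *Lce1g* within a stretch of 46.381 kb had counts in the same libraries. *Lce1f* had 33 counts in B73 and 9 in B87 in Smad4-on cells under TGFβ1, 1 count in each Smad4-off library under TGFβ1, and 0 under SB505124. *Lce1h* had 7 and 3 counts in Smad4-on cells under TGFβ1 and 0 in the other 6 libraries. Neither was detected by the rule or tested, and each shares part of its 75-base stretches with other *Lce1* genes (4.587% for *Lce1f*, 5.222% for *Lce1h*, 4.935% for *Lce1g*). None of the other 18 *Lce* genes exceeded 1 count in any library.

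*Sprr2h* (ENSMUSG00000046259; chromosome 3, 92385685 to 92387324, plus strand), a small proline-rich protein gene, was expressed in B73 only. There it had 1 count in each SB505124 library, 16 counts under TGFβ1 with Smad4 off and 153 with Smad4 on. In B87 it had 1, 1, 0 and 2 counts in the same order of groups. The 2 lines thus did not share the rise, and the calls below rest on B73.

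The *Sprr2h* log2 fold change for *Smad4* under TGFβ1 was 3.40 ± 0.759 (edgeR adjusted p 0.0457; 0.502 with no replicate block; 0.0810 by DESeq2 with the line). It was 0.28 without the B73 library of Smad4-on cells under TGFβ1 and 5.34 without that of Smad4-off cells, and neither was called (edgeR adjusted p 0.950 and 0.577). The call was also lost without the B87 library of Smad4-off cells under TGFβ1 (0.136). With TGFβ1 in Smad4-on cells the group mean was at least 27.6-fold higher than the floor under SB505124 (edgeR adjusted p 0.00601; 0.132 with no replicate block, where DESeq2 gave 0.0203). Without the B73 library of Smad4-on cells under TGFβ1 the log2 value fell from 5.84 to 2.74, and without the B73 library of Smad4-on cells under SB505124 to 1.77, and neither was called. It was 6.94, and still called, without the B87 library of Smad4-on cells under SB505124. The line coefficient was also called, B87 being lower (-5.00 ± 0.841, edgeR adjusted p 0.00779), but not without either library of Smad4-on cells under TGFβ1 (-2.70 without B73, -2.71 without B87).

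Counting all members, *Smad4* restoration under TGFβ1 raised 2 (*Lce1g*, *Sprr2h*) and lowered 1 (*Sprr1a*) of the 16 detected, against 3.12% of all tested genes called in either direction (1.31% higher and 1.8% lower). With no replicate block edgeR called only *Sprr1a*, and DESeq2 called *Sprr1a* and *Lce1g*. Over all tested genes these 2 fits called 36 and 262, against 446 in edgeR with the line. The median log2 fold change was 0.19 over the members and -0.01 over all tested genes. Under SB505124 it raised 2 (*S100a7a*, *S100a16*) and lowered 1 (*Sprr1a*), against 1.09% of all tested genes (0.636% higher and 0.455% lower), with medians of 0.30 and 0.00. No member was called by edgeR with no replicate block under SB505124, although 5 had an unadjusted p under 0.05, and DESeq2 with no replicate block called 1. Over all tested genes these fits called 2 and 97, against 156 in edgeR with the line.

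**Figure D3:**
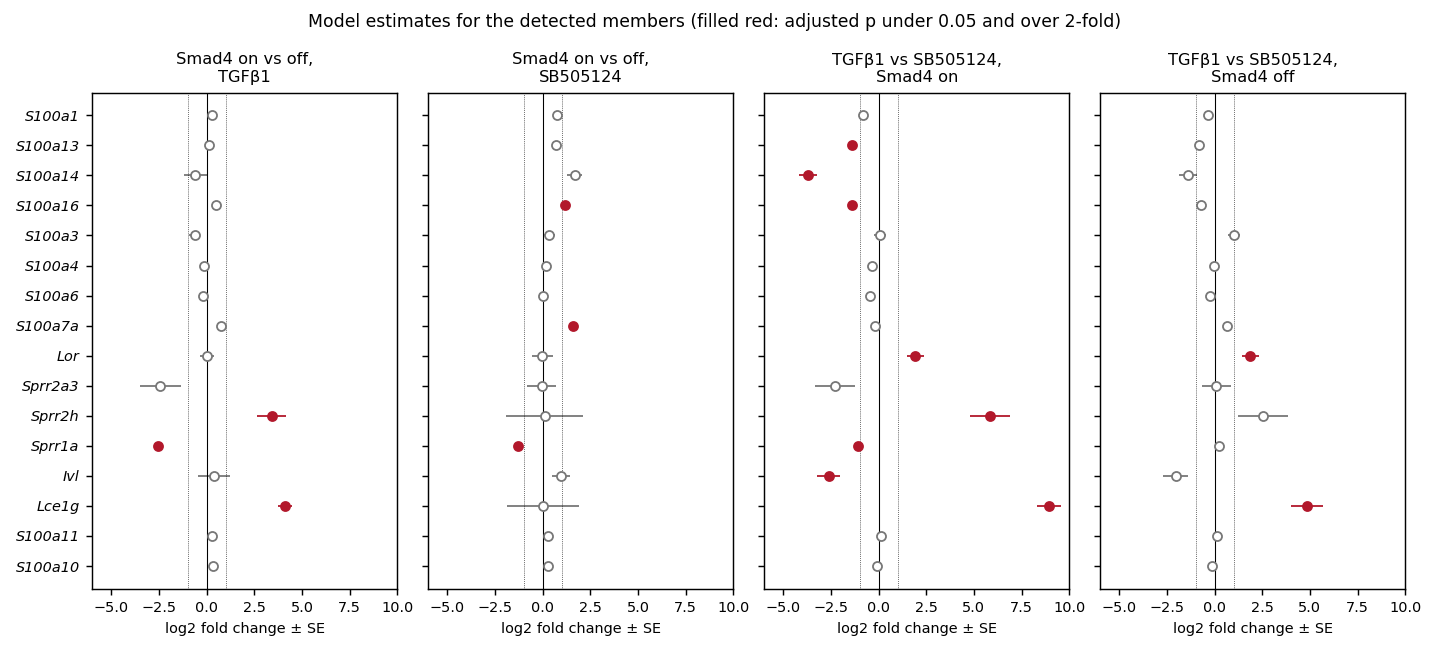
Log2 fold change ± SE of the 16 detected members in 4 comparisons from the edgeR model with the cell line, with filled red points for genes past the adjusted p of 0.05 and 2-fold, and dotted lines at 2-fold. *Sprr1a* is the only gene called lower in both *Smad4* comparisons, and the widest error bars belong to genes with few counts.

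*S100a7a* (ENSMUSG00000063767; chromosome 3, 90654017 to 90658669, plus strand) rose with *Smad4* under SB505124. It was 113 CPM in B73 and 35.8 in B87 with Smad4 off, and 393 and 92.5 CPM with Smad4 on. Under TGFβ1 it was 167 and 62.0 CPM with Smad4 off and 247 and 117 CPM with Smad4 on. It rose within each line in both treatments, but the groups overlapped, and B73 stood above B87 in every group.

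The rise of *S100a7a* under SB505124 was 3.05-fold (log2 1.61 ± 0.216, edgeR adjusted p 0.0194), and that under TGFβ1 was not called (0.76 ± 0.211, edgeR adjusted p 0.0837). The difference between the treatments did not pass the test (-0.85 ± 0.299, edgeR adjusted p 0.364). The call under SB505124 was lost with no replicate block (0.975). It was also lost without either B73 library under SB505124 (1.22 without Smad4 on, 1.68 without Smad4 off) or the B87 library of Smad4-off cells (1.56). B87 had 2.95-fold less *S100a7a* than B73 (log2 -1.56 ± 0.153, edgeR adjusted p 0.000858).

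*S100a1*, *S100a13*, *S100a14* and *S100a16* form the block at the start of the cluster. They encode calcium-binding proteins, of which S100A1 is best known from muscle, S100A13 from the release of FGF1 and S100A14 and S100A16 from epithelial cells. Each had its highest level in the B73 library of Smad4-on cells under SB505124, and in Smad4-on cells of both lines each had its lower level under TGFβ1. Both traits also held for *S100a6* and *S100a10* outside the block.

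*S100a16* (chromosome 3, 90537254 to 90543151) was 62.1 CPM in B73 and 40.0 in B87 with Smad4 off under SB505124, and 171 and 72.0 CPM with Smad4 on. Under TGFβ1 it was 39.5 and 23.5 CPM with Smad4 off and 56.6 and 31.5 CPM with Smad4 on. *Smad4* thus raised it 2.24-fold under SB505124 (log2 1.17 ± 0.148, edgeR adjusted p 0.0161), and the value under TGFβ1 was 0.47 ± 0.151 (edgeR adjusted p 0.120). The first was lost with no replicate block (0.914), in a fit of only the 4 libraries compared (0.0935), and without either B73 library under SB505124, at 0.90 without Smad4 on (0.0660) and 1.00 without Smad4 off (0.125). The difference between treatments did not pass the test (-0.69 ± 0.211, edgeR adjusted p 0.305).

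*S100a13* (chromosome 3, 90514435 to 90524581) in Smad4-on cells was 118 CPM in B73 and 75.9 in B87 under SB505124, against 35.8 and 36.7 CPM under TGFβ1. *S100a14* (chromosome 3, 90526856 to 90528837) in the same libraries had 124 and 38 counts against 6 and 5. *S100a1* (chromosome 3, 90511034 to 90514392) was 73.6 and 48.5 CPM against 39.8 and 29.6. In none of the 3 did the libraries of the 2 treatments overlap, and the same held for *S100a16*. Of the 16 detected members 11 did not overlap in this comparison (4 higher and 7 lower), against 58.3% of all tested genes (28.5% higher and 29.8% lower).

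Against SB505124, TGFβ1 lowered *S100a13* by 2.66-fold (log2 -1.41 ± 0.193, edgeR adjusted p 0.00213), *S100a16* by 2.65-fold (-1.41 ± 0.150, 0.000764) and *S100a14* by 12.9-fold (-3.69 ± 0.477, 0.00172) in Smad4-on cells. *S100a1* passed the adjusted p but not the 2-fold limit (-0.81 ± 0.163, edgeR adjusted p 0.0101). With no replicate block edgeR still called *S100a13* (adjusted p 0.0118) and did not call *S100a14* (0.0628) or *S100a16* (0.117), while DESeq2 with no replicate block called *S100a14* (0.00537) and *S100a16* (0.0153) as well. The value of *S100a14* was -2.73 without the B73 library of Smad4-on cells under TGFβ1 and -4.34 without the B87 one, and it was called both times.

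In Smad4-off cells the same 4 genes also read lower with TGFβ1, with log2 values of -0.81 ± 0.192 for *S100a13*, -0.71 ± 0.151 for *S100a16*, -1.42 ± 0.471 for *S100a14* and -0.36 ± 0.164 for *S100a1*. None was called by edgeR, *S100a13* and *S100a16* passing the adjusted p alone (0.0361 and 0.0255). The interaction was not called for any of them (edgeR adjusted p 0.305 to 0.567). In Smad4-off cells the libraries of the treatments did not overlap in 11 of the 16 members (5 higher and 6 lower with TGFβ1), against 49.4% of all tested genes (23.5% higher and 25.9% lower). The tested genes within 50 kb of the block, *Ilf2*, *Chtop*, *Snapin* and *Npr1*, which were looked up after the values of the block had been seen, had log2 values of -0.71 to -0.07 in the Smad4-on comparison, and 0 of the 4 were called.

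Of the 6 epithelial markers 2 were lowered beside this block. In Smad4-on cells TGFβ1 lowered *Cdh1*, E-cadherin (log2 -2.31 ± 0.458, edgeR adjusted p 0.00936), and *Krt19* (-2.33 ± 0.215, 0.000454). The other 4 of the 6 markers were not called, and 8.31% of all tested genes were called lower. The endothelial marker *Cdh5* rose with TGFβ1 there (3.79 ± 0.495, edgeR adjusted p 0.00177) but had at most 54 counts. *Pecam1* had at most 5, and *Kdr*, the other tested marker of the 3, was not called there. In Smad4-off cells both tested endothelial markers were called higher with TGFβ1, against 3.11% of all tested genes. Under TGFβ1 *Smad4* lowered 1 of these markers, against 1.8% of all tested genes. The 3 together reached 26.0 CPM, in the B87 library of Smad4-off cells under TGFβ1. The summed level of the 6 epithelial markers in Smad4-on cells under SB505124 was 6183 CPM in B73 and 1650 in B87, against 5722 and 1170 CPM under TGFβ1. Their part in the levels of the *S100a* genes was not tested.

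*S100a6*, *S100a11*, *S100a10* and *S100a4*, the most abundant members per length, were not called in any contrast. *S100a6* (chromosome 3, 90612882 to 90624181) ran from 2117 CPM (B87, Smad4 on, TGFβ1) to 3924 CPM (B73, Smad4 on, SB505124). Under SB505124 *Smad4* moved it in opposite directions in the 2 lines, by a log2 value of 0.49 in B73 and -0.42 in B87. The 95% interval of *S100a6* for *Smad4* under TGFβ1 was -0.68 to 0.26.

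*S100a10* and *S100a11* were higher with Smad4 on in every pair of libraries, by small amounts. *S100a11* (chromosome 3, 93520488 to 93526287) was 424 CPM in B73 and 418 in B87 with Smad4 off under SB505124, and 524 and 510 CPM with Smad4 on. Under TGFβ1 it was 461 and 454 CPM, and 594 and 531 CPM. Its groups did not overlap within either treatment, but log2 values of 0.30 ± 0.080 in both did not pass the test (edgeR adjusted p 0.0759 under TGFβ1, 0.167 under SB505124).

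For *S100a10* (chromosome 3, 93555080 to 93564643), Smad4-off and Smad4-on values were 389 and 531 CPM in B73 and 404 and 451 CPM in B87 under SB505124. Under TGFβ1 they were 362 and 484 CPM in B73 and 354 and 427 CPM in B87. The log2 values were 0.34 ± 0.096 under TGFβ1 (edgeR adjusted p 0.0839) and 0.30 ± 0.096 under SB505124 (0.247). Of the *S100a11* stretches of 75 bases, 37.757% also occur in *Gm12854*, so its count is less certain than that of *S100a10*, which shares none.

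*S100a4* (chromosome 3, 90603771 to 90606045), often used as a mesenchymal marker, differed by line. In B73 it was 165 CPM (Smad4 off) and 163 CPM (Smad4 on) under SB505124, and 158 and 126 CPM under TGFβ1. In B87 the corresponding values were 197, 249, 201 and 203 CPM. All 4 B87 libraries stood above all 4 B73 libraries, with a line coefficient of 0.48 ± 0.086 that passed the adjusted p (edgeR, 0.0101) but not 2-fold. *S100a4* shares 44.794% of its 75-base stretches with *Gm42674*, which overlaps it on the same strand. *S100a3*, a hair-cuticle protein gene, had 27 to 65 counts and no call.

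*Lor* (ENSMUSG00000043165; chromosome 3, 92080271 to 92083142, minus strand) was low but higher with TGFβ1 in both *Smad4* states. It had 4 to 10 counts in the 4 SB505124 libraries and 21 to 28 counts in the 4 TGFβ1 libraries, without overlap. The rise was 3.79-fold in Smad4-on cells (log2 1.92 ± 0.450, edgeR adjusted p 0.0173) and 3.69-fold in Smad4-off cells (1.88 ± 0.446, 0.0364). *Smad4* did not move it detectably, with a 95% interval of -0.86 to 0.91 under TGFβ1.

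The calls of *Lor* depended on single libraries. That in Smad4-off cells was lost with no replicate block (edgeR adjusted p 0.111), with DESeq2 (0.114 with the line) and without any 1 of the 4 libraries compared, namely B73 under SB505124 (log2 2.25) or TGFβ1 (2.09) and B87 under SB505124 (1.56) or TGFβ1 (1.69). That in Smad4-on cells was lost with DESeq2 (0.0595 with the line) and without the B73 library under SB505124 (1.49) or TGFβ1 (1.62), and read 2.57, still called, without the B87 library under SB505124.

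*Ivl* (ENSMUSG00000049128; chromosome 3, 92570902 to 92573735, minus strand) moved opposite to *Lor*. It had 9, 8, 12 and 38 counts in the SB505124 libraries (B73 Smad4 off and on, then B87 off and on) and 1, 2, 4 and 4 counts in the TGFβ1 libraries in the same order, without overlap. TGFβ1 lowered it 6.18-fold in Smad4-on cells (log2 -2.63 ± 0.593, edgeR adjusted p 0.0153; 0.0957 with no replicate block; 0.0817 by DESeq2 with the line). In Smad4-off cells the value was -2.05 ± 0.674 (edgeR adjusted p 0.0959). The Smad4-on call was lost without the B87 library under SB505124 (-1.87), which held the 38 counts, and without either TGFβ1 library (-2.72 without B73, -2.44 without B87).

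*Sprr2a3* (chromosome 3, 92285417 to 92291405) had 0 to 18 counts and no call. It had 18 counts in both SB505124 libraries of B87 against 1 in each of B73, and 47.472% of its 75-base stretches also occur in *Sprr2a1*.

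Counting the treatment comparison, TGFβ1 raised 3 members (*Lce1g*, *Sprr2h*, *Lor*) and lowered 5 (*S100a13*, *S100a14*, *S100a16*, *Ivl*, *Sprr1a*) of 16 in Smad4-on cells. Of all tested genes 13.9% were called there (5.62% higher and 8.31% lower). These were 1993 genes, and with no replicate block edgeR called 1035 of all tested genes and DESeq2 1363. Fitted with no replicate block, edgeR called 4 of the 16 and DESeq2 called 6. In the edgeR fit with the line the count was 4 without the B73 library of Smad4-on cells under TGFβ1 and 5 without that under SB505124. In Smad4-off cells 2 members rose (*Lce1g*, *Lor*) and none fell, against 5.93% of all tested genes (3.11% higher and 2.82% lower). With no replicate block edgeR called 0 in Smad4-off cells (4 at an unadjusted p under 0.05, and 1 called by DESeq2 with no replicate block). Over all tested genes these fits called 168 and 476, against 848 in edgeR with the line. *Lce1g* and *Sprr2h* reached 10 counts only in TGFβ1 libraries, and *Ivl* only in SB505124 libraries. These genes entered the detected set through the treatment where they were high. Counts of members called or not overlapping between treatments therefore partly reflect the detection rule. Comparisons within a *Smad4* state share libraries with those within a treatment.

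**Figure D4:**
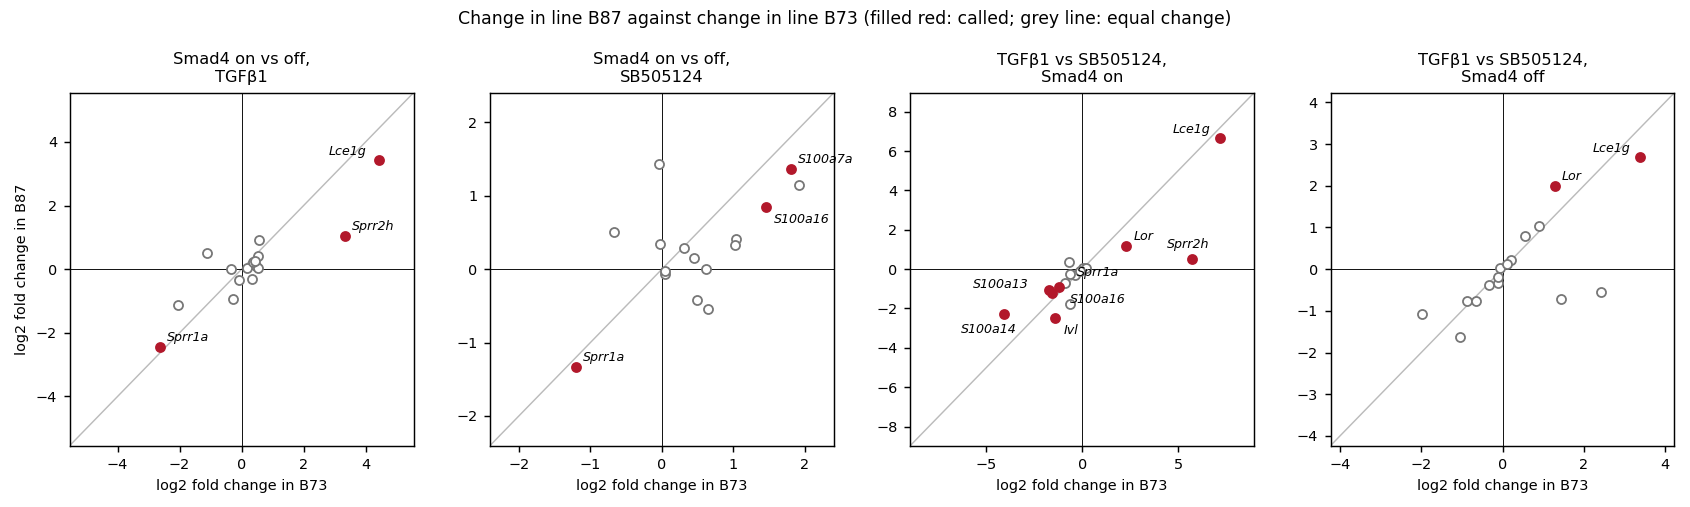
Log2 fold change in B87 (y axis) against B73 (x axis) for the 16 detected members in 4 comparisons, computed on log2 CPM (prior count 2), with filled red points for called genes and a grey line for equal change. *Sprr1a* changes in the same direction in both lines. So does *Lce1g*, except for *Smad4* under SB505124 (0.65 in B73 and -0.55 in B87, from 0 or 1 counts). *Sprr2h* lies far from the line of equal change with 5.73 in B73 and 0.53 in B87 for TGFβ1 in Smad4-on cells.

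The lines themselves differed in 3 of the 16 members, all lower in B87, against 8.37% of all tested genes (3.87% higher and 4.5% lower). Besides *S100a7a* and *Sprr2h* this was *S100a14* (log2 -1.67 ± 0.325, edgeR adjusted p 0.0136), which had 6 to 124 counts in B73 and 3 to 38 in B87. Its call was lost without either library of Smad4-on cells under SB505124 (-1.35 without B73, edgeR adjusted p 0.111; -1.35 without B87, 0.0995). *S100a16* was also lower in B87 (-0.88 ± 0.106), short of 2-fold. *Sprr2h* reached 10 counts in B73 libraries only, so its detection was tied to the line where it was high. Of the 6 epithelial markers 4 were lower in B87 (*Krt7*, *Krt8*, *Cdh1*, *Krt18*), by log2 values from -4.86 to -1.10, and of the 3 tested fibroblast markers *Pdgfra* and *Pdgfrb* were higher, while *Lum* had 0 counts and *Dcn* at most 3. Their part in the levels of the *S100a* genes was not tested. No member passed the test of a line difference in the *Smad4* effect (3 at an unadjusted p under 0.05; 0.392% of all genes called) or in the TGFβ1 effect (2 at an unadjusted p under 0.05; 0% of all genes), both tested with edgeR alone.

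Other genes of the cornified envelope were mostly undetected, and several of those tested fell with TGFβ1. Of the 12 further genes of the complex (*Rptn*, *Hrnr*, *Flg2*, *Tchh* and others) 1 was tested, *Tchh*, with no call. Of the 14 genes of envelope assembly 6 were tested. In Smad4-on cells TGFβ1 lowered 4 of these, the transglutaminase *Tgm5* (log2 -3.95 ± 0.502), periplakin *Ppl* (-3.18 ± 0.350), suprabasin *Sbsn* (-2.13 ± 0.309) and envoplakin *Evpl* (-1.80 ± 0.426), with edgeR adjusted p-values from 0.00089 to 0.0178, and raised none, against 8.31% of all tested genes lower and 5.62% higher. In Smad4-off cells 2 were lowered (*Ppl*, *Sbsn*), against 2.82% of all tested genes. *Smad4* lowered *Ppl* under TGFβ1 (-2.20 ± 0.341, edgeR adjusted p 0.0147) and raised *Tgm5* under SB505124 (4.36 ± 0.518, 0.0136). Genes outside the members were tested only in edgeR with the line, so how far their calls depend on the fit is not known. The median log2 value of the 6 with TGFβ1 in Smad4-on cells was -1.97, against -0.02 for all tested genes.

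Of the 19 regulators of squamous differentiation 13 were tested. In Smad4-on cells TGFβ1 raised 1, the AP-1 subunit *Junb* (log2 3.20 ± 0.154, edgeR adjusted p 5.8e-05), and lowered 7, *Klf4*, *Elf3*, *Ehf*, *Grhl3*, *Trp63*, *Maf* and *Hopx*, against 13.9% of all tested genes called (5.62% higher and 8.31% lower). *Junb* also rose in Smad4-off cells (2.82 ± 0.152), where *Grhl3* and *Maf* fell. None of the 13 was called for *Smad4* in either treatment, against 3.12% of all tested genes under TGFβ1 and 1.09% under SB505124. *Junb* read 0.63 ± 0.140 for *Smad4* under TGFβ1. Levels of *Trp63*, *Grhl3* and *Ehf*, which mark stratified and other epithelia, never exceeded 24 counts. Of the 14 squamous markers 5 were tested, and TGFβ1 in Smad4-on cells raised the desmosomal plakophilin *Pkp1* (1.56 ± 0.205) and lowered keratin 13 (*Krt13*, -5.11 ± 0.289) and *Trp63*. *Smad4* raised *Pkp1* under TGFβ1 (1.45 ± 0.204) and SB505124 (2.26 ± 0.229).

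All 10 partners and receptors of S100 proteins were tested. *Anxa2*, which binds S100A10, and *Ahnak* were not called in any contrast, and TGFβ1 lowered *Anxa11* in Smad4-on (log2 -1.72 ± 0.129, edgeR adjusted p 0.000222) and Smad4-off cells (-1.26 ± 0.126, 0.00203). Of all tested genes 8.31% and 2.82% were called lower in these comparisons. None of the 10 was called for *Smad4*, against 3.12% of all tested genes under TGFβ1 and 1.09% under SB505124. The receptors *Ager* (9 to 28 counts) and *Tlr4* (308 to 945 counts) were not called for *Smad4* or with TGFβ1. Between the lines 1 of the 10 was called, higher in B87, against 3.87% of all tested genes higher. Of the S100 genes outside the complex, *S100b* was higher in B87 (2.13 ± 0.369, edgeR adjusted p 0.00884) and had no other call, and *S100g*, with 0 to 14 counts, had none.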

How the data were processed

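RNA-seq was performed on 8 libraries of PDAC cell lines B73 and B87. Stranded poly(A) libraries were made and read from 1 end at 75 bp by the authors, who trimmed reads with Trimmomatic 0.36, aligned them to GRCm38 with STAR 2.5.3a and counted them per gene with featureCounts 1.6.3. Strand and multi-mapping settings are not given in the sources used here. The deposited file holds raw counts per gene, without pooling, and its coordinates are printed here.

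Counts were tested with edgeR 4.0.16 in R 4.3.3, with TMM scaling, filterByExpr (leaving 14301 genes) and a quasi-likelihood F-test, in 1 model of the 4 groups and the cell line over all 8 libraries. A gene was called at a Benjamini-Hochberg adjusted p under 0.05 and a change over 2-fold, as in the study. The study used DESeq2 and named no covariate, so fits without the line and DESeq2 1.42.0 were alternatives. The line pairs the libraries, since the sample titles name it. As a check, how far a line lay from its group mean was correlated across genes for each of the 6 pairs of groups (r = 0.642 to 0.774). The 2 libraries of a group, 1 per line, differed beyond sampling noise (chi-square per degree of freedom 43.6 to 64.2). That value includes the difference between the lines and does not measure the spread left in the model. SE is |log2 fold change| over the root of F. Values per line used a prior count of 2. Shared 75-base stretches and exon lengths came from GENCODE M21, and promoters from RefSeq.

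Called members, and *S100a4*, *S100a6*, *S100a8* to *S100a11*, *Ivl*, *Lor* and *Flg*, were named in full, and up to 4 called genes per further list with values, others by name. Members and lists were chosen with earlier results of these data known. Scripts were tested on simulated data. No protein sequences are shown. One allele shared by all groups is not reported here.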

Additional observations from a re-analysis of the deposited data

Results flagged for a closer look

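*Sprr1a* was the only member whose *Smad4* effect differed between treatments by a test of the difference itself. Its log2 fold change for Smad4 on against off was -2.54 ± 0.116 (SE) under TGFβ1 and -1.27 ± 0.109 under SB505124, a difference of -1.27 (edgeR adjusted p 0.0471), with the same direction in both lines. The call was lost when any 1 of the 8 libraries was left out in edgeR (adjusted p 0.0679 to 0.244) and with no replicate block (0.646), and was made by DESeq2 with the line (2.21e-06) and with no replicate block (0.00153). Groups of 2 libraries are too small to look for single libraries that stand apart.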

How the results depend on the processing

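Over the 20 member results called, 317 alternatives kept 258 calls, lost 59 and reversed 0, and 14 calls of other members were gained. The alternative with no fold-change rule reused the main fit and could not lose a call. Where an alternative left a called gene untested, that call was counted neither as kept nor as lost. Counts of called members that moved by over 1.5 times were as follows. With no replicate block in edgeR they were 1 under TGFβ1, 0 under SB505124, 4 and 0 for TGFβ1 in Smad4-on and Smad4-off cells, and 0 in the interaction. Over all tested genes that fit called 36, 2, 1035, 168 and 0 in the same order. With at least 10 counts in every library the member counts were 1 under TGFβ1, 3 and 0 for TGFβ1 in Smad4-on and Smad4-off cells, and 1 between lines. Genes near 0 counts are removed by that filter. DESeq2 with no replicate block called 1 under SB505124 and 1 for TGFβ1 in Smad4-off cells, where DESeq2 with the line also called 1. With no filter on low counts that last count was 4, with no fold-change rule it was 4, and the count between lines was 5. DESeq2 size factors in edgeR gave 0 in the interaction (*Sprr1a*, adjusted p 0.0523).

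Leaving out 1 library at a time gave 2 to 3 calls under TGFβ1, 1 to 4 under SB505124, 4 to 8 and 0 to 2 for TGFβ1 in Smad4-on and Smad4-off cells, 0 to 0 in the interaction and 2 to 4 between lines. A left-out library leaves 1 group with a lone sample, assumed to vary like the other groups. Leaving out a whole line leaves no residual degrees of freedom. The line-by-condition terms were fitted in 1 way only. Genes of the further lists (markers, envelope assembly, regulators and S100 partners) were also tested in 1 way only, in edgeR with the line. Depth limits the low genes: *Lor*, *Ivl*, *Sprr2a3* and *Sprr2h* had under 40 counts in most libraries.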
